A study of Mus musculus with 11 samples.

Results

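Chemokine ligands are the small secreted proteins, and a pair of membrane-tethered ones, that direct the movement of leukocytes. Every gene whose symbol begins with Ccl, Cxcl, Xcl or Cx3cl followed by a number was taken. This gave 39 of the 24969 gene names in a bulk RNA-seq table, 39 of 31017 in 2 whole-mesenchyme single-cell libraries and 38 of 27934 in 1 sorted single-cell library, in all 40 symbols. The material is mesenchyme of the mouse small intestine, freed of muscle and epithelium and digested with collagenase. Bulk RNA-seq covered 4 sorted populations with 2 libraries each. Telocytes were the GFPHi cells, and PDGFRAlo cells the GFPLo cells, of the PDGFRAH2BEGFP mouse, in which the Pdgfra locus drives a nuclear green fluorescent protein. Blood endothelium (CD31+LYVE1-) and lymphatic endothelium (CD31+LYVE1+) came from C57BL/6 mice, so mouse line goes with the division of stroma from endothelium and the 2 cannot be told apart. The sorted single-cell library held PdgfraEGFP cells, and the whole-mesenchyme libraries are called WM1 and WM2 here. No group had a treatment, and ages are not given in the labels. The labels do not say that replicates were separate animals, so p-values describe only how far these libraries spread, and that spread may be technical.

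A chemokine binds a receptor with 7 membrane passes on a leukocyte and is held on the surface of nearby cells, which gives the leukocyte a direction. Inflammatory ligands such as Ccl2 and Cxcl2 are switched on within hours in many cells, while homeostatic ligands such as Cxcl12, Cxcl13 and Ccl21a are made steadily by stromal and endothelial cells and position lymphocytes, plasma cells and dendritic cells. Atypical receptors (Ackr1 to Ackr4) bind chemokines without the usual signal and remove or move them. In the gut wall these molecules bring in eosinophils, macrophages, T cells and antibody-secreting cells.

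Bulk libraries held 8549348 to 55382442 counts, and chemokine ligands took 0.275% to 0.675% of them. Marker sums followed the sort labels: 9 telocyte markers summed to 6197 and 6869 CPM (counts scaled to the same total in each library) in telocytes against 777 and 933 in PDGFRAlo cells, and 8 lymphatic markers to 4016 and 7627 CPM in lymphatic endothelium against 99.7 and 201 in blood endothelium. Markers of macrophages were also present. The 10 of them summed to 56 and 36.5 CPM in telocytes, 673 and 250 in PDGFRAlo cells, 3187 and 2307 in blood endothelium, and 7932 and 10328 in lymphatic endothelium. T cell markers (7 measured) ranged from 5.63 CPM in a telocyte library to 374 in a lymphatic library. Blood endothelial markers summed to 3219 and 1099 CPM in PDGFRAlo libraries against 75.2 and 49 in telocyte libraries. Their part in the differences below was not tested, and in bulk samples fewer cells of a type and less RNA per cell cannot be told apart.

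Mouse chemokine genes lie in clusters. In GENCODE M21 on GRCm38, 12 members are on chromosome 11, 11 on chromosome 5, 5 on chromosome 4 and 4 on chromosome 8. Ccl2 (chr11:82035571-82037453), Ccl7 (chr11:82045712-82047525) and Ccl11 (chr11:82057823-82062955) follow each other on the plus strand with gaps of 8.3 and 10.3 kb. Cxcl1 and Cxcl2 lie 10.8 kb apart on chromosome 5, and Cxcl9 and Cxcl10 18.6 kb apart. The promoters of these neighbours are printed because the pairs differed in the cells that carried their transcripts. Each line is the 250 bases before the RefSeq start (GRCm38.p6), from chr5:90890995-90891244 (Cxcl1, plus strand), chr5:90903649-90903898 (Cxcl2, plus), chr5:90785851-90786100 (Cxcl3, plus), chr5:92328080-92328329 (Cxcl9, minus) and chr5:92348890-92349139 (Cxcl10, minus). Capitals mark matches to the motifs named after them.
Cxcl1: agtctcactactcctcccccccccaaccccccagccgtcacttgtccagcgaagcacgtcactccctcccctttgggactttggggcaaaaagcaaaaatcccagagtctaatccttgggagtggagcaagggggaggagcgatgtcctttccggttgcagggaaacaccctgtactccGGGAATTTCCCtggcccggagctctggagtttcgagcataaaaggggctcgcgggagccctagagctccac
Cxcl2: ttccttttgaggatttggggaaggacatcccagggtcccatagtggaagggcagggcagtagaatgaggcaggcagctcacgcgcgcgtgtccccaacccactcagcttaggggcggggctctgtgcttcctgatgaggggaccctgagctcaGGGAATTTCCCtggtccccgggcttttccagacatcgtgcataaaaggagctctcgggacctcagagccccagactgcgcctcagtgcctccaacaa
Cxcl3: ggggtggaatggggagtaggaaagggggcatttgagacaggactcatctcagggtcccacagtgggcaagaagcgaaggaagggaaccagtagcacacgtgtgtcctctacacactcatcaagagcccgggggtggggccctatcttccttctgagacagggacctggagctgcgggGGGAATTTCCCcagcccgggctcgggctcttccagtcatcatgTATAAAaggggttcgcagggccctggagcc
Cxcl9: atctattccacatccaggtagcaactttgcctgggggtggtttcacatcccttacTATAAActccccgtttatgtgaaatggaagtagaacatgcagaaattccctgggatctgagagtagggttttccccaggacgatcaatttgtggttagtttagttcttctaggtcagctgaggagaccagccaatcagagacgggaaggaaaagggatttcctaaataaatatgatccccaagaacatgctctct
Cxcl10: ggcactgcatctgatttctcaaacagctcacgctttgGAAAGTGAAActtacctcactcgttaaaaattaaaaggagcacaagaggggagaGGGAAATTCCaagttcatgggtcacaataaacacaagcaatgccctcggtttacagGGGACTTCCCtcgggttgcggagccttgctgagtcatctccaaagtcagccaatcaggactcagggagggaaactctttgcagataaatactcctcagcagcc

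The longest run of letters that the Cxcl1, Cxcl2 and Cxcl3 promoters share around an NF-kB match was GGGAATTTCCC. It holds the NF-kB consensus on both strands and occurred in 14 of 32851 RefSeq promoters (0.04%). The NF-kB consensus was in 3.9% of all promoters and in those of 6 of the 27 members with a RefSeq promoter (Ccl9, Ccl20, Cxcl1, Cxcl2, Cxcl3 and Cxcl10). The Cxcl10 promoter had 2 such matches and GAAAGTGAAA, a match to the core of the interferon-stimulated response element (GAAA, any pair of bases, GAAA). That core was in 2.98% of promoters and in those of 3 members (Ccl19, Cxcl10, Cxcl14). The Cxcl9 window held only TATAAA, found in 12.37% of promoters and 10 members. Both strands were searched, and a match describes the letters, not binding.

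Of the 39 members in the bulk table, 5 had no count in any library (Ccl21a, Ccl21b, Ccl21c, Ccl26 and Ccl27b) and 33 of the others were tested among 14893 genes with edgeR's quasi-likelihood test and Benjamini-Hochberg adjustment, called under 0.05. Telocytes against PDGFRAlo cells gave 0 members higher, 12 lower and 21 not past the test, where 2.77% of all genes were higher and 12.1% lower (14.9% in either direction). At an unadjusted p under 0.05, 3 members were higher (Ccl7, Cxcl11 and Cxcl12) and 17 lower, and the share of all genes at that threshold was not counted. DESeq2 called 2 members higher, and 646 of the 14893 genes. The median log2 fold change of the members was -2.05, against -0.03 over all genes. Blood against lymphatic endothelium gave 2 members higher and 9 lower, where 14.7% and 8.32% of genes were (23% in either direction), with medians of -0.69 for members and 0.12 for all genes. The 2 PDGFRA populations against the 2 endothelial ones gave 6 members higher and 20 lower, where 28.8% and 31.7% of genes were (60.5% in either direction), with medians of -2.19 and -0.07.

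**Figure D1:**
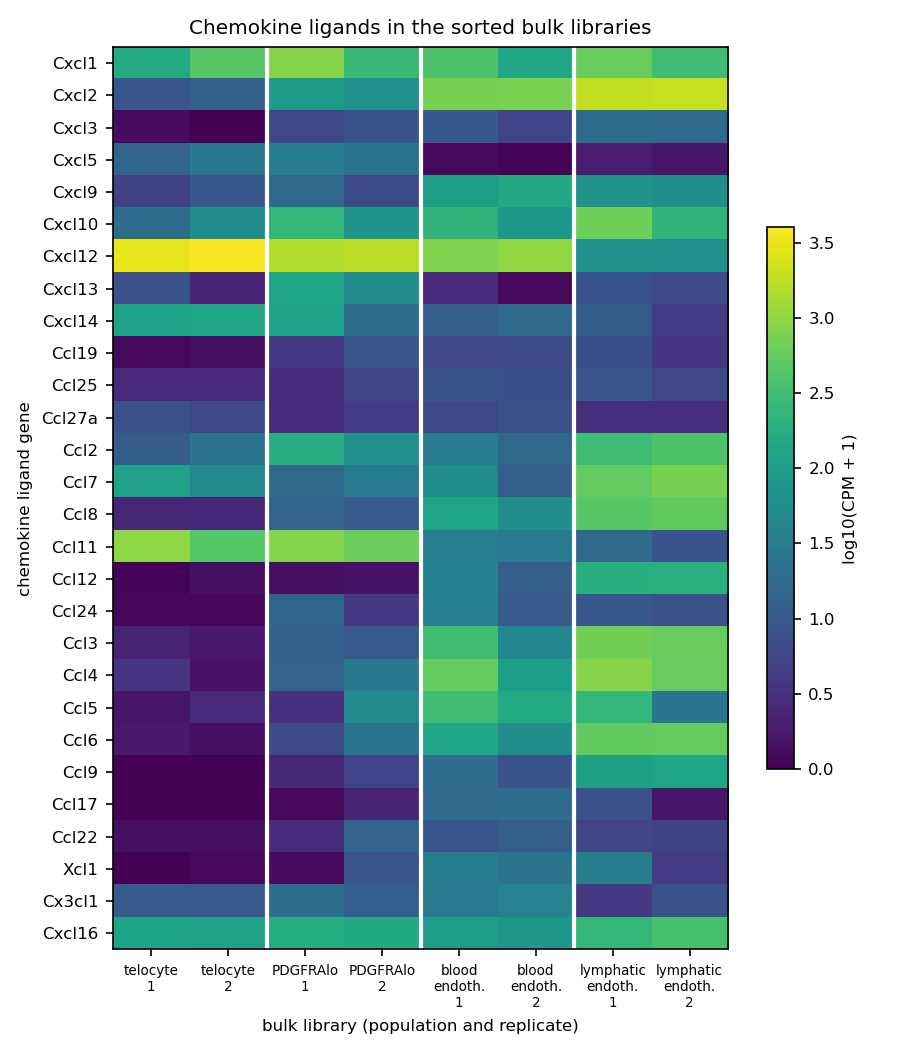
Colour gives log10(CPM + 1) of 28 chemokine ligands (rows) in each of 8 bulk libraries (columns, 2 for each population). Cxcl12 and Ccl11 are brightest in the 4 PDGFRA libraries, and Cxcl2 in the 4 endothelial ones.

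Cxcl12, the ligand of Cxcr4 that retains lymphocytes, plasma cells and progenitors in tissue, was high in both stromal sorts. It had 2887 and 3624 CPM in telocytes, 1528 and 1663 in PDGFRAlo cells, 808 and 1008 in blood endothelium, and 68.6 and 63.5 in lymphatic endothelium. The 4 populations did not overlap. The stroma was higher than endothelium (log2 fold change 3.22 ± 0.29 SE, adjusted p = 2.5e-05) and blood higher than lymphatic endothelium (3.78 ± 0.41, adjusted p = 0.0013), while the excess in telocytes over PDGFRAlo cells did not pass (1.03 ± 0.37, adjusted p = 0.11; DESeq2 called it, adjusted p = 0.0037).

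Ccl11 (eotaxin), which attracts eosinophils through Ccr3, had 976 and 444 CPM in telocytes, 857 and 624 in PDGFRAlo cells, 33.5 and 28.2 in blood endothelium, and 16.7 and 7.4 in lymphatic endothelium. The stromal excess was 5.24 ± 0.42 on the log2 scale (adjusted p = 1.5e-05), and the 2 stromal populations overlapped. Cxcl14, a ligand made by many epithelia and fibroblasts whose receptor is not settled, had 123 and 131 CPM in telocytes, 114 and 18.3 in PDGFRAlo cells, 11.2 and 16 in blood, and 10.5 and 3.23 in lymphatic endothelium (stroma against endothelium 3.27 ± 0.58, adjusted p = 0.0011). One PDGFRAlo library lay near the telocyte level and the other near the endothelial level. Telocytes did not pass against PDGFRAlo cells (0.94 ± 0.75, adjusted p = 0.53) but were called higher without PDGFRAlo library 1 (2.83, adjusted p = 0.033).

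Cxcl13, the B cell attractant of lymphoid follicles, was highest in PDGFRAlo cells. Their libraries had 136 and 55.3 CPM, telocytes 6.77 and 1.27, blood endothelium 1.68 and 0.209, and lymphatic endothelium 7.02 and 5.92. It was lower in telocytes by log2 -4.58 ± 0.96 (adjusted p = 0.011, and 0.055 without telocyte library 2). Ccl19, a Ccr7 ligand that guides dendritic cells and naive T cells, also fell in telocytes: 0.214 and 0.363 CPM against 2.97 and 8.18 in PDGFRAlo cells, with 5.06 and 5.32 in blood and 6.62 and 2.62 in lymphatic endothelium (-4.23 ± 0.83, adjusted p = 0.0082, but 0.063 without telocyte library 1 and 0.051 without telocyte library 2). Of its transcript's 50-base words, 59.1% also occur in other annotated genes, so its counts are uncertain. Ccl25, the gut-homing ligand of Ccr9, was low in all 8 libraries (1.76 to 8.1 CPM) and lower in stroma than in endothelium (-1.47 ± 0.42, adjusted p = 0.013). It did not pass without telocyte library 1 (0.052), telocyte library 2 (0.055) or lymphatic library 1 (0.053).

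Neighbouring monocyte attractants on chromosome 11 had different stromal patterns. Ccl2, the main Ccr2 ligand, had 10.5 and 22.2 CPM in telocytes, 188 and 63.1 in PDGFRAlo cells, 31.4 and 15.3 in blood endothelium, and 301 and 387 in lymphatic endothelium. Telocytes were lower than PDGFRAlo cells (-2.94 ± 0.62, adjusted p = 0.012, but 0.084 without telocyte library 1 and 0.060 without PDGFRAlo library 1) and blood lower than lymphatic endothelium (-3.88 ± 0.64, adjusted p = 0.0042). Ccl7, another monocyte attractant, had 115 and 50.9 CPM in telocytes and 16.3 and 28.8 in PDGFRAlo cells, with 59.6 and 11.4 in blood and 541 and 731 in lymphatic endothelium. The telocyte libraries lay above the PDGFRAlo libraries without overlap, but the difference did not pass (1.88 ± 0.72, adjusted p = 0.13). DESeq2 called it (adjusted p = 0.030), and so did edgeR with no filter on low counts (0.0048) or without blood library 1 or 2 (both 0.038). Blood was lower than lymphatic endothelium (-4.16 ± 0.79, adjusted p = 0.007).

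Ccl8 and Ccl12, the other monocyte attractants of this cluster, were endothelial-sort transcripts. Ccl8 had 1.43 and 1.63 CPM in telocytes, 13.1 and 9.24 in PDGFRAlo cells, 133 and 58.7 in blood and 467 and 525 in lymphatic endothelium. It was lower in telocytes (-2.86 ± 0.47, adjusted p = 0.0036) and higher in lymphatic than in blood endothelium (-2.37 ± 0.43 for blood against lymphatic, adjusted p = 0.0063). Ccl12 was at or under 0.508 CPM in all 4 stromal libraries, at 37.2 and 11.4 in blood and at 177 and 194 in lymphatic endothelium (adjusted p = 0.008 between the endothelia, 0.051 without lymphatic library 2, and 8.8e-06 for stroma against endothelium). Ccl24 (eotaxin 2) was at 0.143 and 0.121 CPM in telocytes, 13.3 and 2.96 in PDGFRAlo cells, 34.9 and 9.13 in blood and 8.51 and 6.72 in lymphatic endothelium (adjusted p = 0.0059 for telocytes against PDGFRAlo). By population means, Ccl8 and Ccl12 had the same order across sorts as the macrophage marker sums, and Ccl24 did not.

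Ccl3, Ccl4, Ccl5, Ccl6 and Ccl9, which attract macrophages and lymphocytes, were low in telocytes. Of these, 4 of 5 were called lower there than in PDGFRAlo cells, where 12.1% of all genes were. In stroma against endothelium 5 of 5 were called lower, where 31.7% of all genes were. Ccl3 (MIP-1 alpha) had 1.21 and 0.787 CPM in telocytes, 12.3 and 9.01 in PDGFRAlo cells, 304 and 43.4 in blood and 690 and 575 in lymphatic endothelium. Ccl4 (MIP-1 beta) had 2.49 and 0.484, 12.9 and 28, 565 and 99.1, and 891 and 576 CPM in the same order. In telocytes against PDGFRAlo cells, Ccl3 passed (-3.41 ± 0.83, adjusted p = 0.023), but not without telocyte library 1 (0.077), telocyte library 2 (0.14) or PDGFRAlo library 1 (0.065). Ccl4 passed too (-3.80 ± 0.96, adjusted p = 0.027), but not without telocyte library 2 (0.15), PDGFRAlo library 2 (0.10) or lymphatic library 1 or 2 (0.052 and 0.054). Both blood endothelial libraries lay below both lymphatic libraries for Ccl3 and Ccl4, with a wide gap between the blood replicates, and neither gene passed between the endothelia (adjusted p = 0.091 and 0.34), although Ccl3 did without blood library 1 (adjusted p = 0.0041). Ccl6 had 0.784 and 0.424 CPM in telocytes, 5.81 and 24.2 in PDGFRAlo cells, 129 and 60.1 in blood and 522 and 547 in lymphatic endothelium (-4.64 ± 0.78 for telocytes against PDGFRAlo, adjusted p = 0.0038). Between the endothelia it passed (-2.50 ± 0.64, adjusted p = 0.023), but not without blood library 2 (0.12), lymphatic library 1 (0.070) or lymphatic library 2 (0.093). Ccl9 had 0 and 1 counts in telocytes, 1.45 and 4.25 CPM in PDGFRAlo cells, 17.4 and 7.37 in blood and 110 and 135 in lymphatic endothelium (adjusted p = 0.0038 for telocytes against PDGFRAlo and 0.005 between the endothelia).

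Ccl5 (RANTES), a product of cytotoxic T and NK cells, varied widely between replicates: 0.641 and 1.82 CPM in telocytes, 2.31 and 48.2 in PDGFRAlo cells, 306 and 157 in blood and 244 and 23.6 in lymphatic endothelium. It passed for stroma against endothelium (-4.96 ± 1.03, adjusted p = 0.0026). Telocytes did not pass against PDGFRAlo cells (adjusted p = 0.083) but did without PDGFRAlo library 1 (0.020), by DESeq2 (-4.35, adjusted p = 0.038) and with no filter on low counts (adjusted p = 1e-05). Xcl1 (lymphotactin), the ligand of Xcr1 on cross-presenting dendritic cells, had at most 0.182 CPM in telocytes, 0.33 and 8.27 in PDGFRAlo cells, 31.9 and 23.2 in blood and 32.3 and 3.43 in lymphatic endothelium (adjusted p = 0.0036 for stroma against endothelium, and for telocytes against PDGFRAlo 0.077, or 0.020 without PDGFRAlo library 1, 0.032 by DESeq2 and 3.2e-05 with no filter). In both genes the second PDGFRAlo library was the higher one and the second lymphatic library the lower one. T cell markers summed to 22.6 and 152 CPM in the PDGFRAlo libraries and to 374 and 128 in the lymphatic libraries, in the same order. The Ccr4 ligands were at most 17 CPM: Ccl17 had 0 and 0.0605 CPM in telocytes, 0.198 and 1.29 in PDGFRAlo cells, 15.8 and 17 in blood and 6.75 and 0.672 in lymphatic endothelium. Ccl22 had 0.428 and 0.363, 1.92 and 12.4, 7.99 and 11.2, and 4.59 and 4.1 CPM (telocytes against PDGFRAlo -4.17 ± 0.90, adjusted p = 0.013, but 0.068 without telocyte library 1, 0.094 without telocyte library 2 and 0.084 without PDGFRAlo library 2).

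Among the neutrophil attractants that act through Cxcr2, Cxcl2 (MIP-2) set stroma and endothelium apart and its neighbour Cxcl1 did not. Cxcl2 had 8.2 and 11.7 CPM in telocytes, 90.4 and 62.5 in PDGFRAlo cells, 719 and 749 in blood and 1873 and 1961 in lymphatic endothelium. None of the 4 populations overlapped, and telocytes were lower than PDGFRAlo cells (-2.94 ± 0.40, adjusted p = 0.0014), blood lower than lymphatic endothelium (-1.38 ± 0.38, adjusted p = 0.028) and stroma lower than endothelium (-5.43 ± 0.32, adjusted p = 4e-06). The call between the endothelia was lost without any 1 of telocyte library 1 or 2, blood library 1 or 2, or lymphatic library 1 or 2 (adjusted p = 0.062 to 0.090). Cxcl1 (KC) had 160 and 465 CPM in telocytes, 892 and 264 in PDGFRAlo cells, 408 and 140 in blood and 586 and 302 in lymphatic endothelium, with all 4 populations overlapping. It passed in none of the 3 comparisons (adjusted p = 0.56, 0.53 and 0.66). Cxcl3 had 0.285 and 0.0605 CPM in telocytes, 4.95 and 7.49 in PDGFRAlo cells, 8.46 and 4.27 in blood and 18 and 16.1 in lymphatic endothelium (adjusted p = 0.0018 for telocytes against PDGFRAlo). Cxcl5 had the opposite distribution: 13 and 26.4 CPM in telocytes, 32.8 and 24.2 in PDGFRAlo cells, and at most 0.945 in any endothelial library (stroma against endothelium 6.03 ± 0.44, adjusted p = 9.1e-06).

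The interferon-induced Cxcr3 ligands attract activated T cells. Cxcl9 had 4.21 and 8.84 CPM in telocytes, 15.3 and 5.87 in PDGFRAlo cells, 105 and 147 in blood and 69.3 and 58.6 in lymphatic endothelium (stroma against endothelium -3.43 ± 0.38, adjusted p = 8.1e-05). Its neighbour Cxcl10 had 17.9 and 57.3 CPM in telocytes, 239 and 71.1 in PDGFRAlo cells, 216 and 82.1 in blood and 644 and 223 in lymphatic endothelium. By edgeR, Cxcl10 passed for stroma against endothelium (-1.73 ± 0.57, adjusted p = 0.025) and in neither other comparison. In telocytes against PDGFRAlo cells it was called lower by DESeq2 (-1.97, adjusted p = 0.046) and with no filter on low counts (-2.05, adjusted p = 0.0030), and without that filter also in blood against lymphatic endothelium (-1.44, adjusted p = 0.036). For stroma against endothelium, adjusted p was 0.079 without telocyte library 1, 0.069 without PDGFRAlo library 2, 0.099 without blood library 1 and 0.11 without lymphatic library 1. Of the membrane-tethered ligands, Cx3cl1 (fractalkine), which Cx3cr1-bearing macrophages read, had 9.98 and 9.26 CPM in telocytes, 18.6 and 11.1 in PDGFRAlo cells, 28.5 and 38.8 in blood and 3.11 and 6.93 in lymphatic endothelium (blood against lymphatic 2.72 ± 0.48, adjusted p = 0.0054). Cxcl16, the ligand of Cxcr6, had 120 and 113, 170 and 151, 99.4 and 80.2, and 249 and 351 CPM in the same order, higher in lymphatic than in blood endothelium (-1.74 ± 0.33 for blood against lymphatic, adjusted p = 0.0072).

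**Figure D2:**
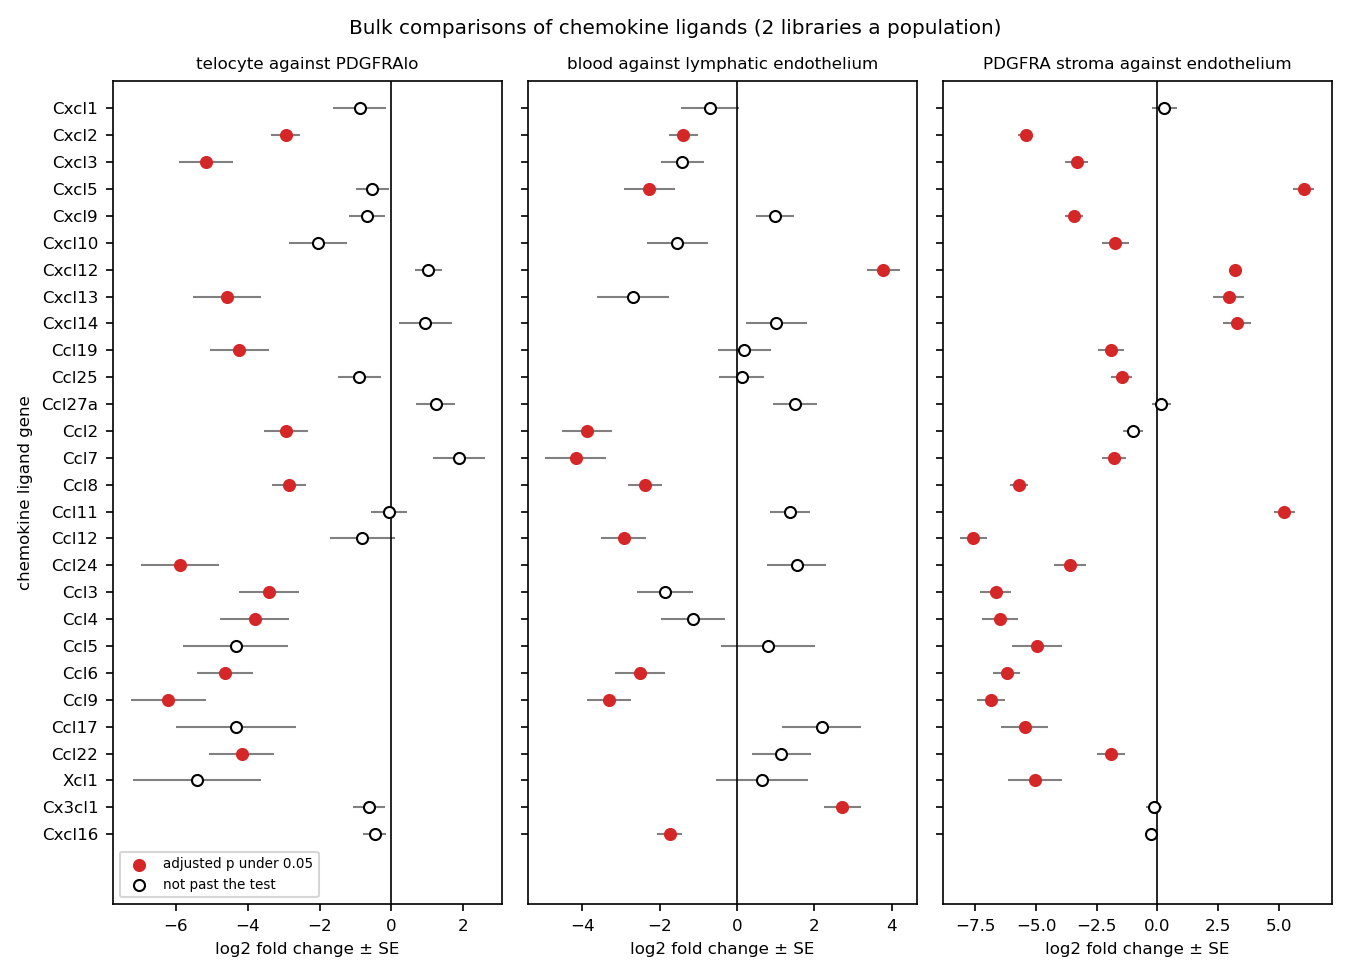
Points are log2 fold changes with standard errors (x axes) of 28 chemokine ligands (y axis) in 3 bulk comparisons, each with 2 libraries a population; filled points passed at an adjusted p under 0.05. In the first panel all filled points lie to the left, lower in telocytes; values of Ccl9, Ccl17, Ccl24, Cxcl3 and Xcl1 there rest on 5 counts or fewer over both telocyte libraries.

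The rest were low or untested. Ccl27a, a skin and mucosal Ccr10 ligand, ranged from 1.78 to 6.79 CPM and passed in no comparison, and 66.4% of its 50-base words occur in other genes. Ccl28, the mucosal Ccr10 ligand, had 2.49 and 2.91 CPM in telocytes and was called for stroma against endothelium (3.10 ± 0.90, adjusted p = 0.015; not called without lymphatic library 2). Ccl1, Ccl20, Cxcl11 and Cxcl17 stayed under 5 CPM on average in each population, and Cxcl15 had 0 to 9 counts a library.

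Single-cell libraries were read for the level of each ligand in separate classes of cells. After filters, 6123 and 5929 cells of WM1 and WM2 and 3843 of the sorted library were kept, with median depths of 5200, 5172 and 4836 UMIs (counted RNA molecules). WM1 and WM2 shared 9 barcodes, and the sorted library shared 1 with WM1 and none with WM2. A cell was put in a class when it had at least 3 markers of a list and few of any rival lineage, and no chemokine or receptor was used. This placed 5313, 5080 and 3649 cells, with 690, 738 and 165 cells left out for rival lineages. The 13 classes are named by marker pattern only. Levels are UMIs scaled to the same total in each class sum, also written CPM, from the 2 whole-mesenchyme libraries. Those libraries differed little beyond counting error, past the chi-square 95% limit for 7.23% to 12% of genes by class, so adjusted p-values from them are small and describe these 2 libraries.

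Of 39 members, 4 had no UMI (Ccl21b, Ccl26, Ccl27 and Ccl27b) and 31 were tested among 11768 genes. All 31 were higher in at least 1 class than in the mean of the others, which is close to the 98.2% of all genes. By class, the share of all genes higher than the mean of the others ran from 11.3% (B cell-like) and 15.4% (glia-like) over 21.8% (lymphatic endothelium-like), 23.9% (macrophage-like), 24% (pericyte-like), 26.4% (blood endothelium-like), 28.5% (telocyte-like), 33.6% (dendritic cell-like), 34.6% (T cell-like), 35% (innate lymphoid or NK-like), 35.4% (smooth muscle-like) and 37% (plasma cell-like) to 41.2% (fibroblast-like). In 23 of 31 the highest class passed against each of the other 12, where 31.5% of all genes did. The highest class by mean CPM was macrophage-like for 12 members, innate lymphoid or NK-like for 4, enteric glia-like for 4, smooth muscle or myofibroblast-like for 4, telocyte-like for 2, dendritic cell-like for 2, and fibroblast-like, lymphatic endothelium-like and T cell-like for 1 each. The share of all genes highest in each class was not counted. For none of their 4 (Ccl2, Ccl20, Cxcl1 and Cxcl10) did glia-like cells pass against each other class. For Ccl2 and Ccl20 the fit put glia-like cells below the second class, without passing (log2 -0.34 against macrophage-like and -0.43 against T cell-like). Chemokine ligands took 1.24% and 1.15% of the UMIs of macrophage-like cells in WM1 and WM2, 0.698% and 0.691% in lymphatic endothelium-like cells, 0.401% and 0.417% in fibroblast-like cells and 0.348% and 0.343% in telocyte-like cells. In plasma cell-like cells they took 0.014% and 0.0146%.

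**Figure D3:**
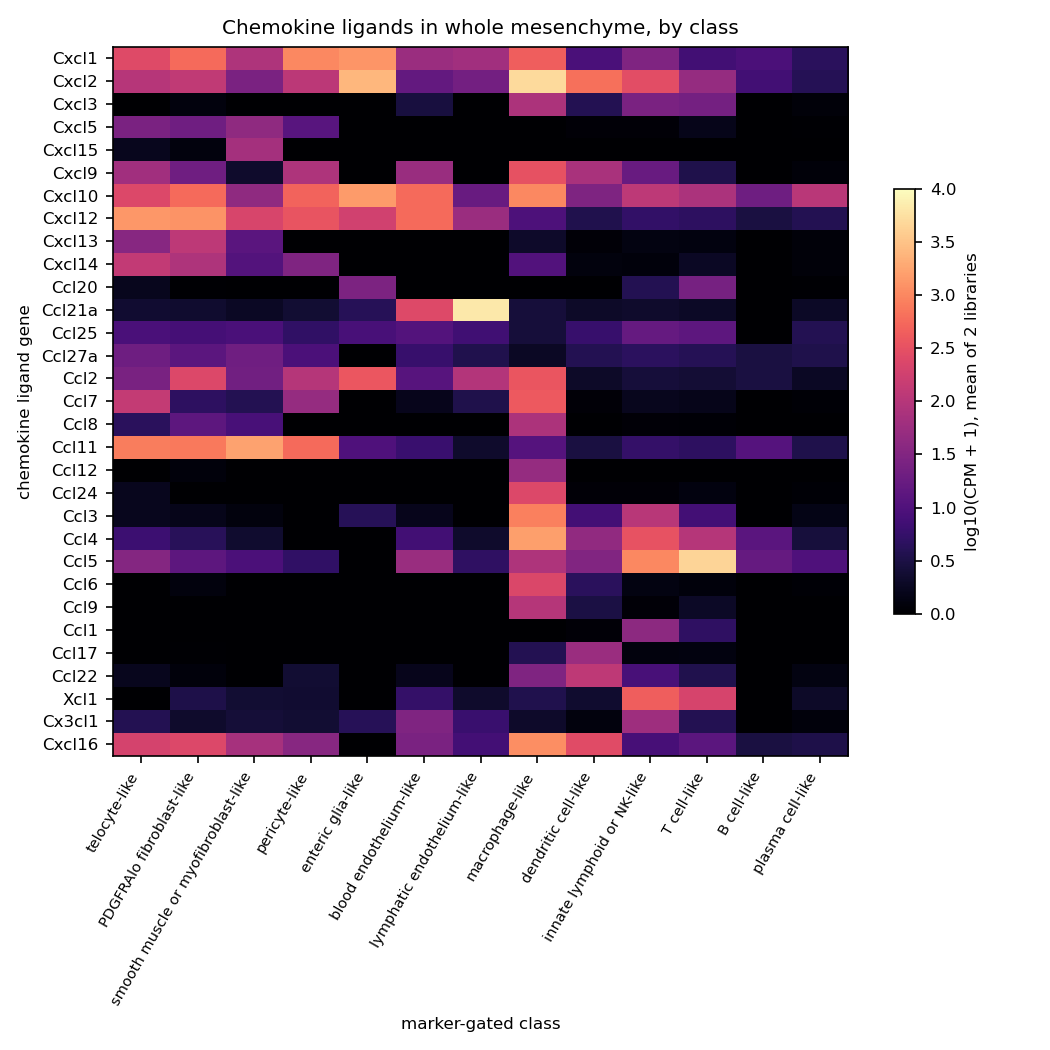
Colour gives log10(CPM + 1), the mean of WM1 and WM2, for 31 tested chemokine ligands (rows) in 13 marker-gated classes (columns). The column of macrophage-like cells is bright for most Ccl genes and Cxcl2, and Ccl21a is bright in lymphatic endothelium-like cells.

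Ccl21a (chr4:42772860-42773993, minus strand), the Ccr7 ligand that draws dendritic cells into lymphatic vessels, had 6660 and 6656 CPM in lymphatic endothelium-like cells. Blood endothelium-like cells had 397 and 102, every other class at most 6.33, and barcodes with 100 UMIs or fewer, which hold free RNA, 62.7 and 66.1. A level in free RNA is a share of that RNA, not the amount it adds to a cell. Lymphatic endothelium-like cells passed against each of the other 12 classes (against blood endothelium-like, log2 4.58, adjusted p = 1.3e-41). Leiden clusters group cells by similar profiles, with chemokine and receptor genes kept out. The cluster led by Mmrn1 and Lyve1 had 6494 and 6232 CPM of Ccl21a, and 86.2% of its cells were gated as lymphatic endothelium-like. Whether cells gated as blood endothelium-like included lymphatic cells was not tested, which limits their Ccl21a level. The bulk table lists Ccl21a at 0 counts in all 8 libraries. A count of 0 allows up to 0.405 CPM in lymphatic library 1 and 0.202 in lymphatic library 2 (3 counts; counting error only), and the 8 lymphatic markers in those libraries summed to 4016 and 7627 CPM.

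Of the 50-base words of Ccl21a transcripts, 588 of 821 (71.6%) also occur in Ccl21b, Gm10591, Gm13304 or Gm21541, and all of those of Ccl21b occur in other genes. The 402 coding bases of Ccl21a and Ccl21b differ at T84A and C194T (Ccl21a base first, positions from 1 at the start codon). Coding bases 64 to 214 (GRCm38, GENCODE M21) are printed because they show how little tells the copies apart, with the differing bases in capitals. The sources used here do not give how the bulk counts treated reads that match several genes, and its part in the zeros was not tested.
Ccl21a: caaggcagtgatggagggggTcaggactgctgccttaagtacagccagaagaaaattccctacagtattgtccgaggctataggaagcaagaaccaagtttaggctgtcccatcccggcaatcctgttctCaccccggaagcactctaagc
Ccl21b: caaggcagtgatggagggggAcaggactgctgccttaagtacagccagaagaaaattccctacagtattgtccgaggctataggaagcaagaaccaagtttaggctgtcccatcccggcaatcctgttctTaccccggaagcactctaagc

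Homeostatic stromal ligands kept their stromal pattern in single cells. Cxcl12 had 1404 and 1288 CPM in telocyte-like and 1230 and 1297 in fibroblast-like cells (log2 -0.10 between them, adjusted p = 0.32). It was at 644 and 502 in blood endothelium-like, 325 and 357 in pericyte-like, 196 and 240 in smooth muscle-like, 164 and 197 in glia-like and 75.1 and 33.7 in lymphatic endothelium-like cells. No leukocyte class exceeded 10.4 CPM, against 267 and 254 in free RNA. Cxcl13 had 107 and 122 CPM in fibroblast-like cells, 17.6 and 53.2 in telocyte-like, 19.9 and 3.39 in smooth muscle-like cells and at most 2.14 elsewhere. Fibroblast-like cells passed against each other class. Cxcl14 had 136 and 120 CPM in telocyte-like, 85 and 82.3 in fibroblast-like, 37.4 and 21 in pericyte-like and at most 12 in other gated classes. The Leiden clusters gave another order for Cxcl14. A fibroblast cluster led by Mmp10 and Igfbp3 had 569 and 697 CPM, against 115 and 78.7 in the telocyte cluster. Of the cells of that fibroblast cluster, 73.1% were gated as fibroblast-like.

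Ccl11 was highest in smooth muscle or myofibroblast-like cells, with 1723 and 1645 CPM, a class that bulk sorts did not isolate. Telocyte-like cells had 705 and 927, fibroblast-like 771 and 754, and pericyte-like 584 and 554, while the other 9 classes were at most 17.9 and free RNA was at 207 and 194. Smooth muscle-like cells passed against each (against telocyte-like, log2 1.08, adjusted p = 1e-19). The same class held Cxcl15 (lungkine), which attracts neutrophils, at 70.6 and 65.1 CPM against at most 1.36 in any other class (DESeq2 did not call it, adjusted p = 0.20). Of the gated classes it also had the highest Cxcl5, at 39.3 and 45.5, where telocyte-like cells (35.2 and 16.4) were not beaten (adjusted p = 0.061). In Leiden clusters, Cxcl5 was at 55.8 and 76.6 CPM in the fibroblast cluster led by Mmp10 and Igfbp3. The smooth muscle cluster had 43.3 and 48.9.

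Macrophage-like cells (142 and 119 cells) held many of the chemokines that were highest in the lymphatic endothelial sort. Cxcl2 had 4966 and 4877 CPM there, 2493 and 2478 in glia-like, 532 and 722 in dendritic cell-like, 234 and 344 in innate lymphoid-like and 117 and 131 in fibroblast-like cells. Lymphatic endothelium-like cells had 16.7 and 26.5 and blood endothelium-like cells 25.8 and 3.69, both under the 221 and 192 of free RNA. Ccl4 had 1663 and 1433 CPM in macrophage-like, 306 and 351 in innate lymphoid-like, 79.5 and 112 in T cell-like and at most 53.7 in other cells. In Leiden clusters, which group cells by similar profiles without these genes, cells led by Klrc2 and Gzmc had 1833 and 2205 CPM of Ccl4, above the 1753 and 1405 of the cluster led by C1qa. Ccl3 had 901 and 864 in macrophage-like, 114 and 93.7 in innate lymphoid-like and at most 11.4 in other cells.

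Ccl6 (227 and 242 CPM), Ccl24 (177 and 296), Ccl9 (72.8 and 120) and Ccl12 (45 and 53.6) were highest in macrophage-like cells, with no other class over 4.46 CPM. The gate took cells from clusters with different leading genes. A Leiden cluster of 274 cells led by C1qa and C1qc had 122.8 and 127.2 CPM of Ccl6 and 32.9 and 41.1 of Ccl9. A cluster of 27 cells led by Clec4e, S100a9 and S100a8, of which 51.9% were gated as macrophage-like, had 1154 and 1363 CPM of Ccl6 and 433 and 932 of Ccl9. DESeq2 did not call macrophage-like cells for Ccl9 (adjusted p = 0.20) or Ccl24 (0.097). Ccl8 had 69.3 and 92.2 CPM in macrophage-like, 11.4 and 14.1 in fibroblast-like and at most 10.2 in other cells. Cxcl3 had 55.4 and 107 in macrophage-like, 24.3 and 27.8 in innate lymphoid-like, 11.1 and 33 in T cell-like and at most 2.88 in other cells. These genes were all at 0 in lymphatic endothelium-like cells (72 and 72 cells), and Ccl3 was too. A count of 0 there allows up to 8.34 CPM in WM1 and 7.22 in WM2. Cxcl16 had 1105 and 1156 CPM in macrophage-like, 255 and 286 in dendritic cell-like, 240 and 241 in fibroblast-like and 175 and 221 in telocyte-like cells, and at most 78.6 elsewhere.

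Ccl2 and Ccl7 again parted. Ccl2 had 481 and 268 CPM in glia-like, 421 and 294 in macrophage-like, 252 and 235 in fibroblast-like, 77.7 and 116 in pericyte-like, 111 and 77 in lymphatic endothelium-like and 38.1 and 12.3 in telocyte-like cells, with at most 22.4 elsewhere and 94.5 and 69.2 in free RNA. Glia-like cells did not pass against macrophage-like cells (adjusted p = 0.19) and also not against fibroblast-like cells. Ccl7 had 551 and 240 CPM in macrophage-like, 185 and 86 in telocyte-like, 60.4 and 36.8 in pericyte-like and 5.1 and 2.6 in fibroblast-like cells, and at most 5.69 elsewhere. The pericyte gate used Kcnj8 and Abcc9, which were also among the leading genes of the telocyte Leiden cluster. That cluster had 211 and 111 CPM of Ccl7. Whether some pericyte-like cells were telocytes was not tested, and this limits the pericyte-like level of every ligand.

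Cxcl1 and Cxcl10 were broad. Cxcl1 had 1126 and 1467 CPM in glia-like, 892 and 1139 in pericyte-like (not beaten, adjusted p = 0.14), 548 and 614 in fibroblast-like, 470 and 414 in macrophage-like and 238 and 278 in telocyte-like cells, with at most 92.2 elsewhere and 280 and 234 in free RNA. Cxcl10 had 1563 and 1333 CPM in glia-like, 1131 and 875 in macrophage-like (adjusted p = 0.8 between them), 597 and 549 in blood endothelium-like, 559 and 585 in fibroblast-like, 495 and 512 in pericyte-like and 400 and 87.3 in telocyte-like cells. Its other classes lay between 11.1 and 131, below free RNA at 263 and 248. Glia-like values rest on 33 and 24 cells, the smallest class tested, which also had Ackr1, a blood endothelial receptor, at 56.9 and 35.8 CPM.

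Cxcl9 was narrower: 314 and 337 CPM in macrophage-like cells, 130 and 39.4 in pericyte-like, 116 and 34.6 in dendritic cell-like, 63.3 and 41.8 in blood endothelium-like, 39.6 and 86 in telocyte-like, and 29.7 and 10.3 in fibroblast-like cells, with none in glia-like cells and at most 22.4 in the rest. Macrophage-like cells passed against each other class. The pericyte-like and dendritic cell-like values differed 3-fold or more between the libraries.

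Lymphocyte ligands were highest in lymphocyte-like classes. Ccl5 had 4481 and 4532 CPM in T cell-like and 1030 and 973 in innate lymphoid or NK-like cells. It had 116 and 49.3 in macrophage-like, 94.3 and 8.61 in blood endothelium-like and at most 56 in other gated classes. Free RNA had 466 and 571. A dendritic cell Leiden cluster led by Plet1 and Il1r2 had 372 and 415 CPM of Ccl5. Only 46.6% of its cells were gated as dendritic cell-like, and whether the rest were doublets was not tested. Xcl1 had 474 and 416 in innate lymphoid or NK-like and 212 and 209 in T cell-like cells, and at most 9.05 elsewhere. Ccl1, a Ccr8 ligand, had 32.5 and 45.5 CPM in innate lymphoid or NK-like cells and at most 6.19 elsewhere. Cx3cl1 was likewise highest there, at 60.2 and 56.6 CPM, above blood endothelium-like cells at 33.6 and 23.4 (log2 1.32, adjusted p = 8e-06) and at most 6.33 in other cells. In dendritic cell-like cells Ccl22 had 56.1 and 189 CPM and Ccl17 18.6 and 88.1 (not called by DESeq2, adjusted p = 0.20), and both differed more than 3-fold between the libraries.

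For the low members Ccl20, Ccl25 and Ccl27a, the highest class did not pass against each other class. Ccl20, the Ccr6 ligand, had 32 and 13.5 CPM in T cell-like cells, and a T cell Leiden cluster led by Tnfsf8 and Cd40lg held 57 and 70 UMIs. Glia-like cells had 0 and 53.7 CPM, and the glia Leiden cluster held 0 and 6 UMIs. A count of 0 in glia-like cells allows up to 19 CPM in WM1 and 26.8 in WM2. Ccl25 had 12.4 and 18 CPM in innate lymphoid or NK-like cells and Ccl27a 22.8 and 17.6 in smooth muscle-like cells, and neither class passed against each other class. Ccl19 had at most 7.88 CPM in any class and was not tested, as were Ccl21c, Ccl28 and Cxcl17, with 2 to 4 UMIs in all.

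The contrast of telocytes with PDGFRAlo fibroblasts could be read in 3 assays, and Ccl2 and Ccl7 moved in opposite directions in each. For Ccl2 the whole-mesenchyme means were 25.2 ± 18.3 CPM (SD, n = 2) in telocyte-like and 243 ± 11.7 in fibroblast-like cells (log2 -3.49 ± 0.21 SE, adjusted p = 1.6e-23). The sorted library had 17.3 CPM in 859 telocyte-like cells and 310.3 in 2675 fibroblast-like cells, a ratio of 0.06 (exact 95% counting interval 0.04 to 0.07). For Ccl7 the means were 135 ± 69.9 and 3.85 ± 1.77 CPM (4.93 ± 0.24, adjusted p = 6.1e-28), and the sorted library had 77.3 and 13.9 CPM, a ratio of 5.54 (4.60 to 6.69). In bulk Ccl7 did not pass by edgeR. The sorted library is a single sample with no test, and its intervals cover counting error only.

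**Figure D4:**
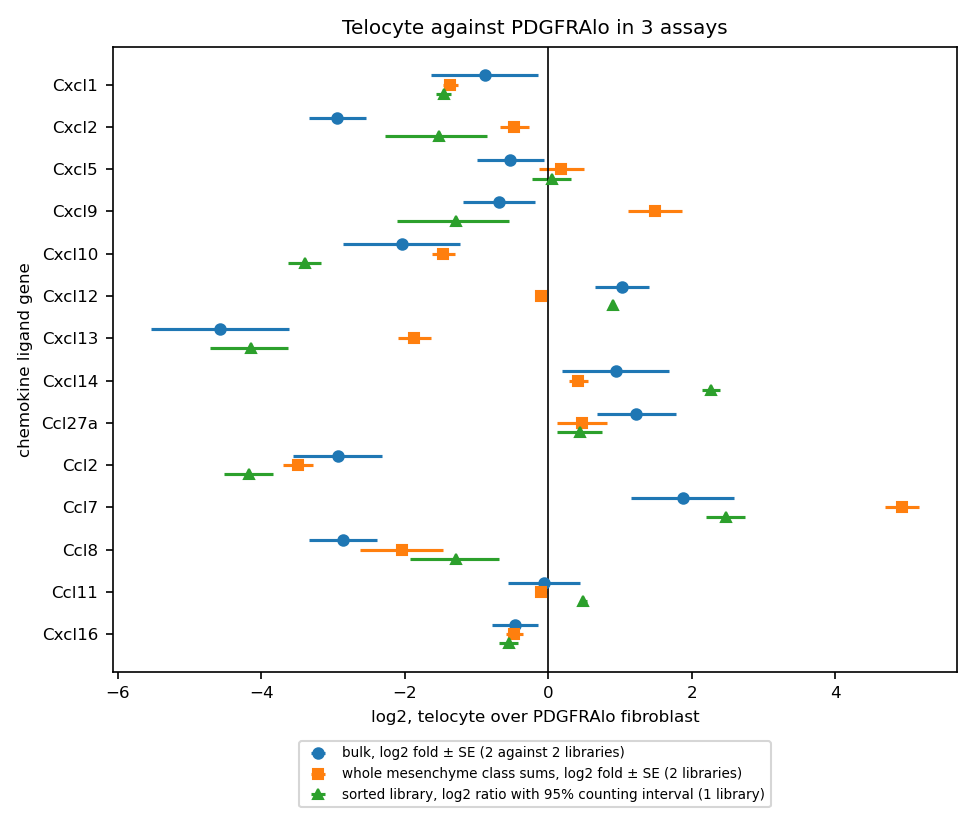
The x axis is the log2 ratio of telocyte to PDGFRAlo fibroblast for 14 chemokine ligands (y axis): circles are bulk and squares whole-mesenchyme class sums (both with SE), and triangles the sorted library with a 95% counting interval. Ccl7 lies right of 0 and Ccl2, Cxcl10 and Cxcl13 left of 0 in all 3 assays, while Cxcl9 lies on both sides.

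Other members differed in how far the assays matched. Of all genes tested in whole mesenchyme, 11.3% were higher and 14% lower in telocyte-like than in fibroblast-like cells. Cxcl13 was lower in telocyte-like cells (-1.87 ± 0.23, adjusted p = 6.6e-10 by edgeR, 0.72 by DESeq2), with a sorted-library ratio of 0.06 (0.04 to 0.08). Cxcl1 was lower (-1.37 ± 0.10, adjusted p = 2.5e-18; sorted ratio 0.36, 0.34 to 0.39) and so was Cxcl10 (-1.47 ± 0.16, adjusted p = 3.9e-12; sorted ratio 0.10, 0.08 to 0.11), although neither passed in bulk by edgeR. The Cxcl10 difference was mostly in WM2, where telocyte-like cells had 87.3 CPM against 400 in WM1. Ccl8 was lower (-2.04 ± 0.58, adjusted p = 0.0048; sorted ratio 0.41, 0.26 to 0.62), as in bulk. Cxcl16 was lower (-0.47 ± 0.12, adjusted p = 0.001 by edgeR, 0.35 by DESeq2; sorted ratio 0.68, 0.62 to 0.74).

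Cxcl12 did not differ detectably in whole mesenchyme, and the sorted library had 3239 CPM in telocyte-like and 1736 in fibroblast-like cells, a ratio of 1.87 (1.83 to 1.91). Ccl11 had a sorted ratio of 1.40 (1.36 to 1.45) and a whole-mesenchyme log2 difference of -0.09 ± 0.08 (adjusted p = 0.43). Cxcl14 was higher in telocyte-like cells in whole mesenchyme (0.42 ± 0.13, adjusted p = 0.011; sorted ratio 4.82, 4.42 to 5.27), but with cells grouped by Leiden clusters it was called lower there (-0.87, adjusted p = 1.3e-06). The call was also lost with a stricter gate (0.17, adjusted p = 0.46), with no filter on low counts (0.19, adjusted p = 0.45) and by DESeq2 (adjusted p = 0.084). Cxcl9 was also higher (1.49 ± 0.38, adjusted p = 0.0012), with 0.44 in WM1 and 3.07 in WM2 alone, -0.63 by Leiden clusters (adjusted p = 0.45), 0.41 with a stricter gate (adjusted p = 0.53) and a sorted ratio of 0.41 (0.23 to 0.68).

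Cxcl2 was 101 ± 68.8 CPM in telocyte-like and 124 ± 9.77 in fibroblast-like cells and did not pass (-0.47 ± 0.21, adjusted p = 0.089), where bulk had called it lower in telocytes. Its level in the sorted library, which held 1 macrophage-like cell, was 4.73 and 13.6 CPM (ratio 0.35, 0.21 to 0.55). Ccl3, Ccl6, Ccl22, Ccl24 and Cxcl3, also called lower in telocytes in bulk, had no UMI in either class of the sorted library. Over the 12760209 UMIs of fibroblast-like cells this allows levels of up to 0.289 CPM each (exact 95% interval). Ccl4 and Ccl9 had 3 and 1 UMIs in fibroblast-like cells there and none in telocyte-like cells. In bulk the PDGFRAlo libraries had 5.81 and 24.2 CPM of Ccl6, beside macrophage marker sums of 673 and 250 CPM. Whether other cells in the GFPLo sort carried these transcripts was not tested.

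Receptors were read from a list of 19 signalling receptors (Ccrl2, a related non-signalling protein, among them), 4 atypical receptors and 3 proteases. In bulk, 17 receptors were tested: 10 were called lower in telocytes against PDGFRAlo cells, 6 lower in blood than in lymphatic endothelium, and 14 lower in stroma than in endothelium, with the others not past the test. Of all genes, 12.1%, 8.32% and 31.7% were lower in these comparisons. Ccr1, on macrophages, had 2.78 and 0.727 CPM in telocytes, 40.6 and 16.5 in PDGFRAlo cells, 70.2 and 46.1 in blood and 245 and 410 in lymphatic endothelium. In whole mesenchyme, 15 receptors were tested and in 13 the highest class passed against each other class (31.5% of all genes). Macrophage-like cells held Ccr1 (660 and 710 CPM), Cxcr4 (430 and 476), Cx3cr1 (248 and 238) and Ccrl2 (624 and 609). T cell-like cells held Ccr9 (274 and 255) and Ccr2 (180 and 189, not above macrophage-like cells), innate lymphoid or NK-like cells Cxcr6 (944 and 959), and plasma cell-like cells Ccr10 (330 and 335). B cell-like cells held Cxcr5 (205 and 172), Ccr6 (146 and 186) and Ccr7 (505 and 525), while dendritic cell-like cells held Xcr1 (108 and 124). For Ccr7, dendritic cell-like cells had 482 and 515 CPM, and the TMM-scaled fit called them higher than B cell-like cells (log2 -0.46 for B against dendritic, adjusted p = 0.0037). Ccr10 in bulk was at 259 and 109 CPM in lymphatic libraries, where plasma cell markers summed to 5835 and 3319 CPM, and at most 17.9 in the others.

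All 4 atypical receptors had a highest class that passed against each other class, where 31.5% of all genes did. Ackr4, which removes Ccl19, Ccl21 and Ccl25, was in fibroblast-like cells (174 and 162 CPM, at most 8.63 elsewhere). In bulk it had 437 and 860 CPM in PDGFRAlo cells, 16.5 and 1.94 in telocytes, 5.18 and 2.64 in blood and 15.1 and 5.98 in lymphatic endothelium (telocytes against PDGFRAlo -6.15 ± 1.02, adjusted p = 0.0037). Ackr2, which degrades inflammatory Ccl ligands, was in lymphatic endothelium-like cells (139 and 144 CPM, at most 6.46 elsewhere), and in bulk had 93.4 and 212 CPM in lymphatic and 6.48 and 4.15 in blood endothelium (-4.84 ± 0.62, adjusted p = 0.0019). Ackr1, which carries chemokines across venules, was in blood endothelium-like cells (200 and 242 CPM), and in bulk had 239 and 236 CPM in blood and 33.5 and 10.2 in lymphatic endothelium (3.45 ± 1.16, adjusted p = 0.059). Ackr3, a scavenger of Cxcl12, was highest in lymphatic endothelium-like cells (476 and 457 CPM, against 186 and 122 in blood endothelium-like cells), while bulk had 472 and 318 CPM in blood and 273 and 247 in lymphatic endothelium (0.60 ± 0.58, adjusted p = 0.48). All 4 were called lower in telocytes than in PDGFRAlo cells, where 12.1% of all genes were. Blood endothelial markers summed to 3219 and 1099 CPM in the PDGFRAlo libraries. The part of endothelial cells in these 4 differences was not tested.

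**Figure D5:**
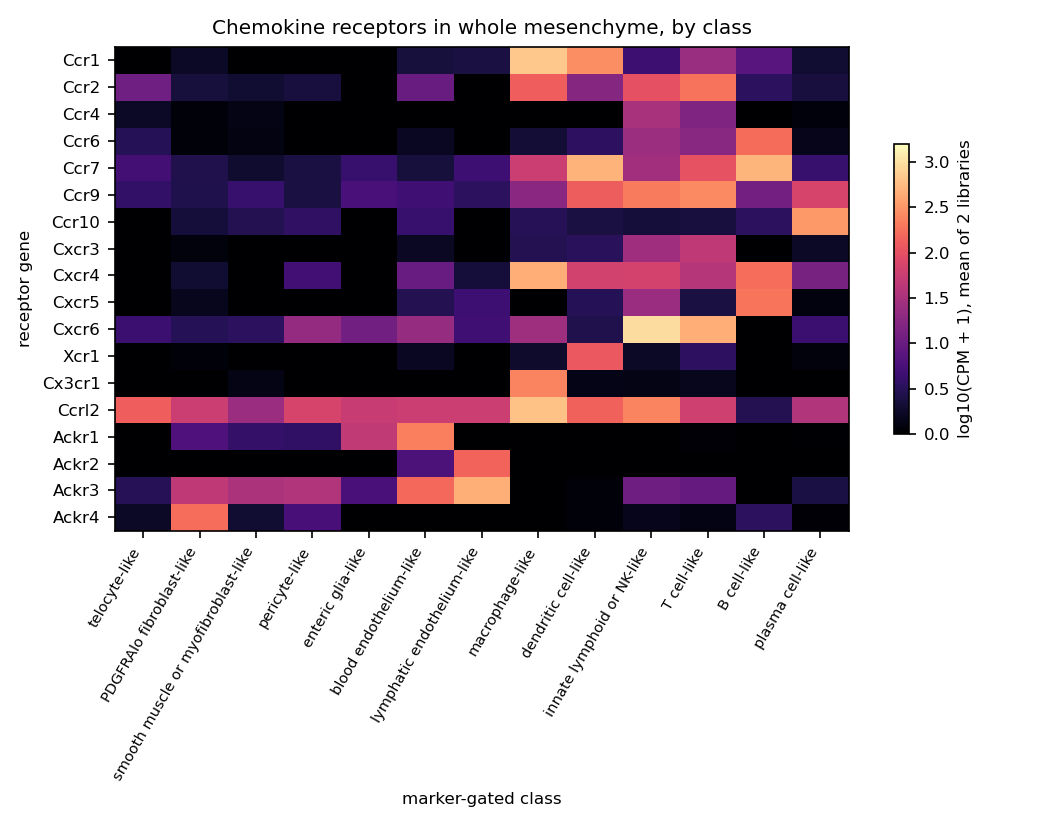
Colour gives log10(CPM + 1), the mean of WM1 and WM2, for 18 tested chemokine receptors and atypical receptors (rows) in 13 marker-gated classes (columns). Signalling receptors are bright in leukocyte classes, and Ackr1 to Ackr4 in endothelial and fibroblast-like classes.

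Of the 3 proteases that trim chemokines, 2 had a highest class that passed against each other class, where 31.5% of all genes did. These were Dpp4 in dendritic cell-like cells (127 and 119 CPM) and Adam17 in macrophage-like cells (201 and 157). Adam10 was highest in glia-like cells (278 and 250), which did not pass against lymphatic endothelium-like cells. The values that follow are from bulk. Dpp4, which inactivates Cxcl12 and others by removing their first residues, was lower in telocytes (1.21 and 0.424 CPM) than in PDGFRAlo cells (7.93 and 11.9; -3.61 ± 0.54, adjusted p = 0.0022). Adam10, a sheddase of Cx3cl1 and Cxcl16, had 86 to 162 CPM over all 8 libraries and passed in no comparison. Adam17, another sheddase, was higher in stroma (0.75 ± 0.25, adjusted p = 0.026).

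A list of 21 early-response and NF-kB target genes gives the state of the cells beside the inducible ligands. In bulk, 8 were lower in telocytes against PDGFRAlo cells, where 12.1% of all genes were, and 13 did not pass. The 8 included Tnfaip3 (19 and 35 against 234 and 452 CPM), Atf3 (27.6 and 39.2 against 636 and 652) and Il6 (2 and 0.969 against 320 and 113). In stroma against endothelium 6 were higher and 3 lower, where 28.8% and 31.7% of all genes were. In whole mesenchyme, glia-like cells had the highest CPM of 10 of the 21. They had the highest Fos (10015 and 9563 CPM), Jun (6345 and 5770) and Atf3 (3081 and 3059), against 4592 and 4835, 2511 and 2605, and 635 and 653 in fibroblast-like cells. Of the 10, only Fos, Fosb, Jun, Atf3 and Egr1 passed against each other class. For Junb and Nfkbiz the TMM-scaled edgeR fit called macrophage-like cells higher than glia-like cells (log2 -0.41 and -0.43 for glia against macrophage, adjusted p = 0.0036 and 0.0053). The share of all genes highest in glia-like cells was not counted. The other 11 were highest elsewhere, among them Zfp36 and Tnfaip3 in macrophage-like, Il6, Hspa1a and Dnajb1 in fibroblast-like and Ier3 in blood endothelium-like cells. The part of the dissociation of the tissue in the level of these ligands was not tested.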

How the data were processed

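Bulk values are read counts per gene, deposited by the authors as whole numbers and, per the submitters' processing notes, aligned with STAR to mm10; the sources used here do not give counter, annotation and strand. Single-cell values are UMI counts deposited by the authors as Cell Ranger matrices (2.1.1 sorted, 3.0.2 whole mesenchyme, per the submitters' processing notes). For the whole-mesenchyme libraries the labels repeat the sorted library's protocol, with its GFP sort and 10x V2 chemistry. Their source label names no sort, their raw matrices list 6794880 barcodes against 737280, and they held leukocyte-like and endothelium-like classes, so their sort, chemistry and mouse line are uncertain. In bulk, 26 names turned into dates by a spreadsheet (0.131% to 0.523% of counts) were left out, and 14893 genes passed filterByExpr. One edgeR 4.0.16 quasi-likelihood fit (R 4.3.3, TMM scaling) held 4 population means, with 4 residual degrees of freedom and a common biological coefficient of variation of 0.381; the fit was tested on simulated data. SE is the log2 fold change divided by the root of F, and bulk CPM are TMM-scaled. CPM does not correct for gene length, so levels of different genes were not compared in bulk.

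Kept cells had at least 500 genes and less than 10% mitochondrial UMIs, and scrublet scores over 0.25 (103, 111 and 47 cells of WM1, WM2 and the sorted library) were removed (scanpy 1.11.5). Classes needed 3 markers of 1 list and 20 cells in each library; UMIs were summed per library and class and modelled in edgeR, library being a block. The gate's thresholds were chosen after seeing the data. Class CPM are unscaled; under TMM, plasma cell-like cells were also called for Ccl25, Ccl27a and Cxcl10 at low CPM. Members were described in full at 20 CPM or more in a bulk population, at 5 CPM or more with a call, or at 100 CPM in a class; others are given by ranges, and additions were chosen after their values were seen. Members and lists were chosen with earlier results of these data known. Promoters are from RefSeq, and coordinates are 1-based. Alternatives (DESeq2 1.42.0, scaling, filters, replicates left out, Leiden clusters with leidenalg 0.10.2) are given in the closing section. One gene of the pathway lists is not reported here.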

Additional observations from a re-analysis of the deposited data

How the results depend on the processing

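Directions and calls of the named members were recomputed under every alternative. With any 1 library left out, fewer of all genes were called lower in every comparison too, so a fall in those counts is not particular to the members. In telocytes against PDGFRAlo cells the count of members higher, 0, became 2 with DESeq2 and 2 with no low-count filter, and 0 to 1 when 1 library was left out. The count lower, 12, lay between 11 and 17 under the other settings and fell to 7 to 12 with 1 library left out: 8 without telocyte library 1 (Ccl2, Ccl3, Ccl19 and Ccl22 lost) and 7 without telocyte library 2 (Ccl3, Ccl4, Ccl19, Ccl22 and Cxcl13 lost). Without PDGFRAlo library 1, Ccl2 and Ccl3 were lost, without PDGFRAlo library 2, Ccl4 and Ccl22, without either lymphatic library, Ccl4, and in a fit of the 4 libraries compared, Ccl22. Calls for Ccl6, Ccl8, Ccl9, Ccl24, Cxcl2 and Cxcl3 were kept in each of these fits. Blood against lymphatic endothelium had 2 members higher, 5 with no filter and 2 to 3 with 1 library left out. It had 9 lower, with 5 to 10 when 1 library was left out and 5 without lymphatic library 2 (Ccl6, Ccl12, Cxcl2 and Cxcl5 lost). Without blood library 2, or lymphatic library 1, Ccl6, Cxcl2 and Cxcl5 were lost. DESeq2 and the fit with no filter both gained calls for Ccl3, Ccl11 and Cxcl13 between the endothelia and for Ccl2 in stroma against endothelium. Stroma against endothelium had 6 higher (5 to 6 with 1 library left out) and 20 lower (16 to 22).

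Replicate numbers were not shown to pair libraries: same-numbered deviations correlated at 0.123 (telocyte with PDGFRAlo) and 0.279 (blood with lymphatic), and at -0.097 to 0.021 for the others. With a replicate block the counts for telocytes stayed at 0 and 12 with all 12 calls kept, blood against lymphatic endothelium became 3 and 11 (Ccl3, Ccl11 and Cxcl13 gained), and stroma against endothelium 6 and 19.

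In bulk, signs turned for values that had not passed, in all cases with 1 library left out. In telocytes against PDGFRAlo cells, Cxcl1 (-1.85 to 0.27 over these fits) became 0.27, Cxcl9 (-1.33 to 0.18) 0.18 and Ccl11 (-0.75 to 0.40) 0.21 without PDGFRAlo library 1, and Ccl11 0.40 without telocyte library 2. Between the endothelia, Xcl1 (-0.21 to 3.005) became -0.21 and Ccl5 (-0.061 to 3.30) -0.061 without lymphatic library 2. In stroma against endothelium, Cxcl1 (-0.20 to 0.78) became -0.12 without telocyte library 2 and -0.20 without PDGFRAlo library 1, and Cx3cl1 (-0.35 to 0.23) 0.034 without PDGFRAlo library 2 and 0.23 without lymphatic library 2. In single cells, with Leiden clusters in place of gates, 2 values that had passed turned in telocyte-like against fibroblast-like cells: Cxcl14 became -0.87 (adjusted p = 1.3e-06, called the other way) and Cxcl9 -0.63 (adjusted p = 0.45); the cause was not tested. That contrast was added to the alternatives after seeing the data, and its calls for Ccl2 and Ccl7 were kept under each. DESeq2 lost its calls for Cxcl9, Cxcl13, Cxcl14 and Cxcl16.

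Members with a called source class numbered 31, with 24 under DESeq2 (Ccl9, Ccl17, Ccl24 and Cxcl15 among those lost) and 33 with no filter. Leaving out a whole-mesenchyme library gives values with no test. Depth limits the members under 1 CPM in bulk, and the classes with the smallest sums, glia-like (158069 and 111786 UMIs in WM1 and WM2) and B cell-like cells (253547 and 209670).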

Other observations

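Leiden clusters, made with the chemokine and receptor genes kept out, divided several classes further. They are described by their leading genes, with no test, because there is 1 grouping of the same cells. A fibroblast cluster led by Mmp10 and Igfbp3 had 569 and 697 CPM of Cxcl14 in WM1 and WM2, with 245 and 178 CPM of Cxcl13 and 1479 and 1446 of Ccl11. Another led by Cilp, Ackr4 and Grem1, the last a BMP antagonist, had 225 and 300 CPM of Cxcl13 and 292 and 291 of Ccl11. A pericyte cluster led by Vtn and Chrdl1 had 2822 and 2924 CPM of Cxcl1, 1573 and 1485 of Cxcl10 and 1638 and 1317 of Ccl11. A blood endothelial cluster led by Selp, Madcam1 and Ackr1, genes of venules, had 1588 and 1584 CPM of Cxcl10.

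Lymphocyte clusters parted by ligand. Cells led by Cd8a and Gzma had 12353 and 12862 CPM of Ccl5. Cells led by Klrc2 and Gzmc had 2082 and 2011 CPM of Xcl1 beside 6768 and 7541 of Ccl5. Cells led by Il13 and Calca, genes of type 2 lymphoid cells, had 131 and 184 CPM of Ccl1. Cells led by Il22 and Tnfsf11 had 281 and 288 CPM of Cx3cl1, above any gated class. Cells led by Foxp3 had 369 CPM of Ccl20 in WM1 and 3.77 in WM2, so that value rests on 1 library. A dendritic cell cluster led by Xcr1 and Clec9a had 401 and 52.4 CPM of Cxcl9.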
